A study of Mus musculus with 14 samples.

Results

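The cytochrome P450 genes of the mouse were followed across 5 kinds of intestinal sample. They were taken from the gene names in the scanner files, as every name made of Cyp, a family number, a subfamily letter and a gene number, with the cholesterol synthesis gene *Cyp51* left out. This gave 96 genes, read by 120 probes, among 36271 names on the array, and each gene was read from the probe with its highest mean signal. Of the 96 genes, 76 had a single probe and 20 had several, and 7 carry a pseudogene name. A RefSeq gene was found for 93 of the names, of which 88 are still current and 5 have changed, such as *Cyp2c44*, now called *Cyp2c23*. The names of the files are kept here.

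Cytochrome P450 enzymes hold a heme group and insert an oxygen atom from molecular oxygen into a substrate, with electrons handed on by cytochrome P450 reductase, cytochrome b5 or, in mitochondria, adrenodoxin. Members of families 1 to 3 oxidize drugs, plant compounds and arachidonic acid, members of family 4 oxidize the end carbon of fatty acids, and the remaining families make or break down steroid hormones, bile acids, retinoic acid and vitamin D. In the gut, mature enterocytes of the small intestine carry most of the drug-oxidizing forms, and nuclear receptors such as Pxr (*Nr1i2*) and Car (*Nr1i3*), the hepatocyte nuclear factors 4 and the aryl hydrocarbon receptor Ahr are known to govern many of them.

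Total RNA of tissue pieces and of cultured cells was labelled with Cy3 and hybridized to Agilent SurePrint G3 Mouse arrays, 14 in all. Healthy small intestine of C57BL/6J mice had 3 arrays and colon, also labelled C57BL/6J, had 3. Adenomas (3 arrays) and tissue adjacent to adenoma (2 arrays) came from APCmin/+ mice, which carry a germline nonsense mutation of the *Apc* tumor suppressor and develop many intestinal adenomas. CT26, a colorectal carcinoma cell line, had 3 arrays and stands for 1 line. The methods of the study name no strain for this line. The wild-type mice were adults, all mice had a C57BL/6J background, and the age of the APCmin/+ mice is not given in the sources used here. The sample list of the study places the adenoma and adjacent pieces used on arrays under 1 APCmin/+ mouse among those of the study, so that their spread is between pieces of tissue. The list also places 1 colon sample under an APCmin/+ mouse. The methods of the study also describe normal colon as taken from APCmin/+ mice, whereas the labels give C57BL/6J for every colon array, and the labels are followed here. For its methylation assay the paper reports biological replicates of cell lines, but no source states that the CT26 arrays came from separate cultures. The p-values then measure only the spread between these samples.

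Levels are the log2 of the background-subtracted signal minus the 75th percentile of the array, so that 0 is that percentile and lower values are dimmer. The share of probes that the scanner software marked as above background ran from 46.8% in colon replicate 3 to 58.2%. This array stood apart from the other colon arrays. The median of 10 small intestine enterocyte markers was -1.21 and -0.67 in colon replicates 1 and 2 and 5.19 in replicate 3, and that of 10 colonocyte markers was 5.30, 5.30 and 4.57. The main counts of called genes in colon comparisons are therefore given with and without it, as are the values of the genes that its omission changed most. In tissue, fewer cells of a type and less RNA per cell cannot be told apart.

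Promoter sequence is shown for some members, 4 that were lower in adenomas (*Cyp3a11*, *Cyp3a16*, *Cyp2c65* and *Cyp2c67*) and 2 that were higher (*Cyp26a1* and *Cyp1b1*). The 4 lower ones all hold the motif CAAAGTCCA and are not typical in this. Of the lower members with a listed promoter, 6 held it and 24 did not. Each line holds the 250 bases before the start of the RefSeq transcript in GRCm38.p6, 5′ to 3′ on the strand of the gene, and capitals mark the motifs searched on both strands.
Cyp3a11 (chr5:145879855-145880104, minus strand): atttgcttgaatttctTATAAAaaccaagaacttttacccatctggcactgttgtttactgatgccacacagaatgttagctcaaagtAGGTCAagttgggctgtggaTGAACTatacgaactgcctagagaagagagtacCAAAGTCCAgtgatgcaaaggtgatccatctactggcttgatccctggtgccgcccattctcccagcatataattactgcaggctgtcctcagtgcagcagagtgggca
Cyp3a16 (chr5:145469724-145469973, minus strand): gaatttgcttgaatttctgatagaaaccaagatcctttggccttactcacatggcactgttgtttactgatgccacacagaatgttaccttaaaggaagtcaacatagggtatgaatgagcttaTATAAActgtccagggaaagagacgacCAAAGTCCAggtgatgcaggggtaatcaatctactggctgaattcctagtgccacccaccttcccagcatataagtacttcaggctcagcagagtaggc
Cyp2c65 (chr19:39060756-39061005, plus strand): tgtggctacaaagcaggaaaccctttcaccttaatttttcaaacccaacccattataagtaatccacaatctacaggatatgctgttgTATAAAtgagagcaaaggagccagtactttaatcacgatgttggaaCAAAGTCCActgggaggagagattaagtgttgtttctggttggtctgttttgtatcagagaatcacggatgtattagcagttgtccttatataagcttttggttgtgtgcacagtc
Cyp2c67 (chr19:39649043-39649292, minus strand): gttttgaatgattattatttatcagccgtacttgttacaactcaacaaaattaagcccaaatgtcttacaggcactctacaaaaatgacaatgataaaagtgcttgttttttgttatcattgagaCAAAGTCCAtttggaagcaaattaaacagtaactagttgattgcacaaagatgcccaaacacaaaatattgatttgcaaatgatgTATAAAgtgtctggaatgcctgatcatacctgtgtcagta
Cyp26a1 (chr19:37697558-37697807, plus strand): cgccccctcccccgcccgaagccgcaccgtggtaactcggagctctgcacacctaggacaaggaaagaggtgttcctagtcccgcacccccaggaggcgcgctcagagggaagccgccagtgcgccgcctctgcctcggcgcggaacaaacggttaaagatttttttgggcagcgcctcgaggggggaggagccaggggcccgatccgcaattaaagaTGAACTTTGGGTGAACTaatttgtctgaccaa
Cyp1b1 (chr17:79715062-79715311, minus strand): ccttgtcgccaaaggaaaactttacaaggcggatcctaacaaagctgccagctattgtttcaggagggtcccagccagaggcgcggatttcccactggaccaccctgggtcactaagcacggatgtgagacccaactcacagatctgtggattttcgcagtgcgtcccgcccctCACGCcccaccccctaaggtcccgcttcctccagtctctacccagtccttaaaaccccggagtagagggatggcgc
The motifs were TATAAA (the letters of a TATA box), AGGTCA and AGTTCA (nuclear receptor half-sites) and GCGTG (the core of the Ahr element). Also searched were the retinoic acid receptor element (a direct repeat of AGTTCA with a spacer) and CAAAGTCCA (bound by the hepatocyte nuclear factors 4). TATAAA was counted at any position in the window. Its first base stood 234, 126, 162 and 40 bases before the start in *Cyp3a11*, *Cyp3a16*, *Cyp2c65* and *Cyp2c67*.

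Of the 96 members, 70 had a promoter in the RefSeq table, which held 27025 genes in all. CAAAGTCCA stood in the promoters of 8 of these 70 and in 0.451% of all genes. The 8 were *Cyp2c65*, *Cyp2c67*, *Cyp2c68*, *Cyp2c70*, *Cyp3a11*, *Cyp3a16*, *Cyp3a41b* and *Cyp8b1*, each on the strand of the gene, with its first base between 64 and 125 bases before the start. Genes of a subfamily are recent duplicates that share promoter sequence, so these matches are not independent. The retinoic acid receptor element stood in *Cyp26a1*, from 32 to 16 bases before the start and opposite to the gene, and in 0.0259% of all genes. TATAAA stood in 27 of the 70 members and in 14.3% of all genes, AGGTCA in 18 and 15.8%, AGTTCA in 11 and 13.4%, and GCGTG in 14 and 30.9%. The half-site matches of *Cyp26a1* are those of its repeat. A match describes the letters of this window, and binding was not measured.

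Of the 96 genes, 66 exceeded background throughout 1 group or more, 10 only on some arrays, and 20 on no array. The last included *Cyp1a2*, *Cyp7a1* and *Cyp8b1*, which serve drug and bile acid metabolism in liver, the adrenal genes *Cyp11b1* and *Cyp11b2*, and *Cyp24a1*, which inactivates vitamin D. All arrays of the small intestine showed 58 members, those of adjacent tissue 60, of adenomas 61, of colon 43 and of CT26 34, and 29 members were above background on all 14 arrays. The highest group mean was that of the small intestine for 43 of the 66 genes, of adjacent tissue for 8, of adenomas for 6, of colon for 5 and of CT26 for 4, and the lowest was that of CT26 for 52. These colon counts and means include replicate 3, the array with the fewest probes above background, and were not made without it.

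**Figure D1:**
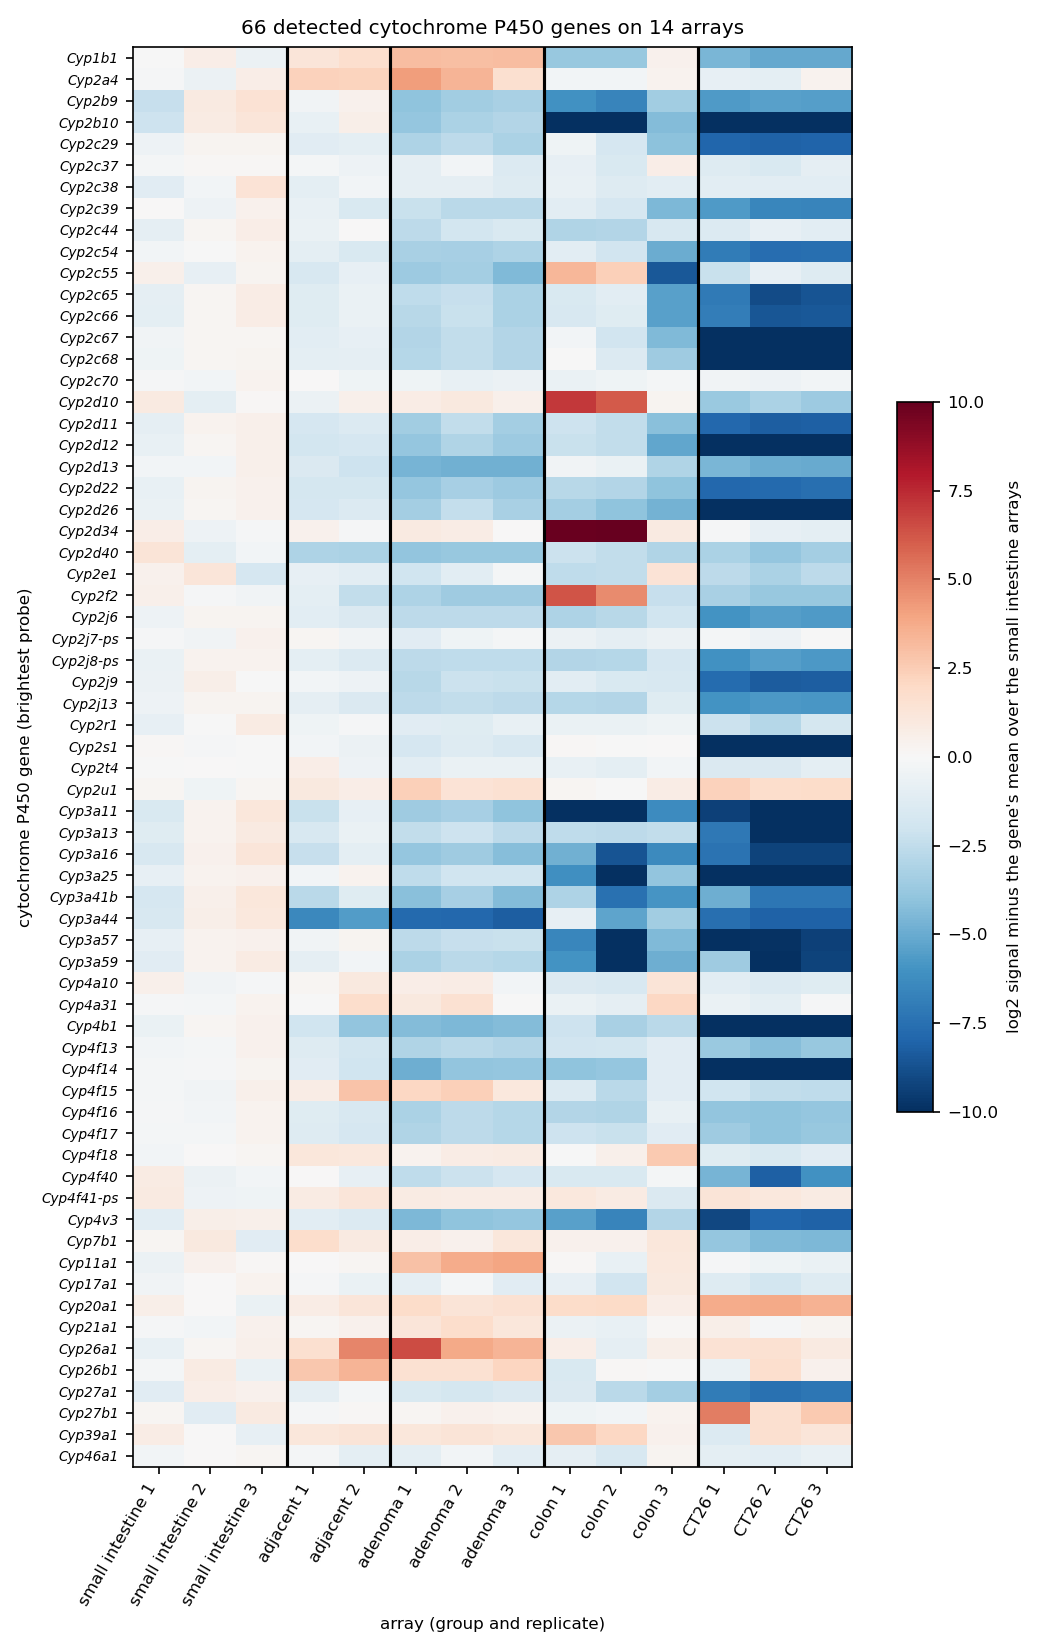
Each row is 1 of the 66 detected cytochrome P450 genes and each column 1 of 14 arrays, with color giving the log2 signal minus the mean of that gene over the 3 small intestine arrays (blue lower, red higher). CT26 is blue in most rows, adenomas are blue in most rows of families 2 to 4 and red for genes such as *Cyp1b1* and *Cyp26a1*, and colon replicate 3 differs from colon replicates 1 and 2 in many rows.

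Adenomas were compared with healthy small intestine to ask which members differ in the benign tumor. The 2 groups came from different mice and genotypes, so tumor, *Apc* genotype and mouse cannot be told apart here. Below, fell and rose mean lower and higher in adenomas. The drug- and fatty-acid-oxidizing genes of families 2 to 4 were mostly lower in adenomas, by 2.85-fold for *Cyp2s1* and at least 51.1-fold for *Cyp3a44*, whereas 9 genes were higher, among them *Cyp26a1* and *Cyp26b1*, which clear retinoic acid, the steroid genes *Cyp11a1* and *Cyp21a1*, and *Cyp1b1*. A gene was called at a log2 difference of at least 1.2 in size and a limma adjusted p of at most 0.01. Of 65 members tested, 44 were called (9 higher and 35 lower in adenomas), where 22.4% of all genes tested were called (11.3% higher and 11.1% lower). The median log2 difference of the tested members was -2.38, against -0.15 over all genes tested. At an adjusted p of at most 0.05 with no minimum fold, 54 members and 52.8% of all genes passed. The filter keeps genes seen on every array of 1 of the groups, and 54 of the 65 were seen on every array of both. With normexp background correction 39 members were called and with slide as a block 38, and leaving out adenoma replicate 1 or 2 left 29 or 28. Over all genes, 3788, 4316, 3338 and 3226 were called in these settings, of 22149, 22149, 22645 and 22485 tested. On slide 1 and slide 2 taken alone the log2 difference was -3.65 and -3.63 for *Cyp3a11*, -4.40 and -3.88 for *Cyp4f14*, and 3.42 and 2.39 for *Cyp1b1*.

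**Figure D2:**
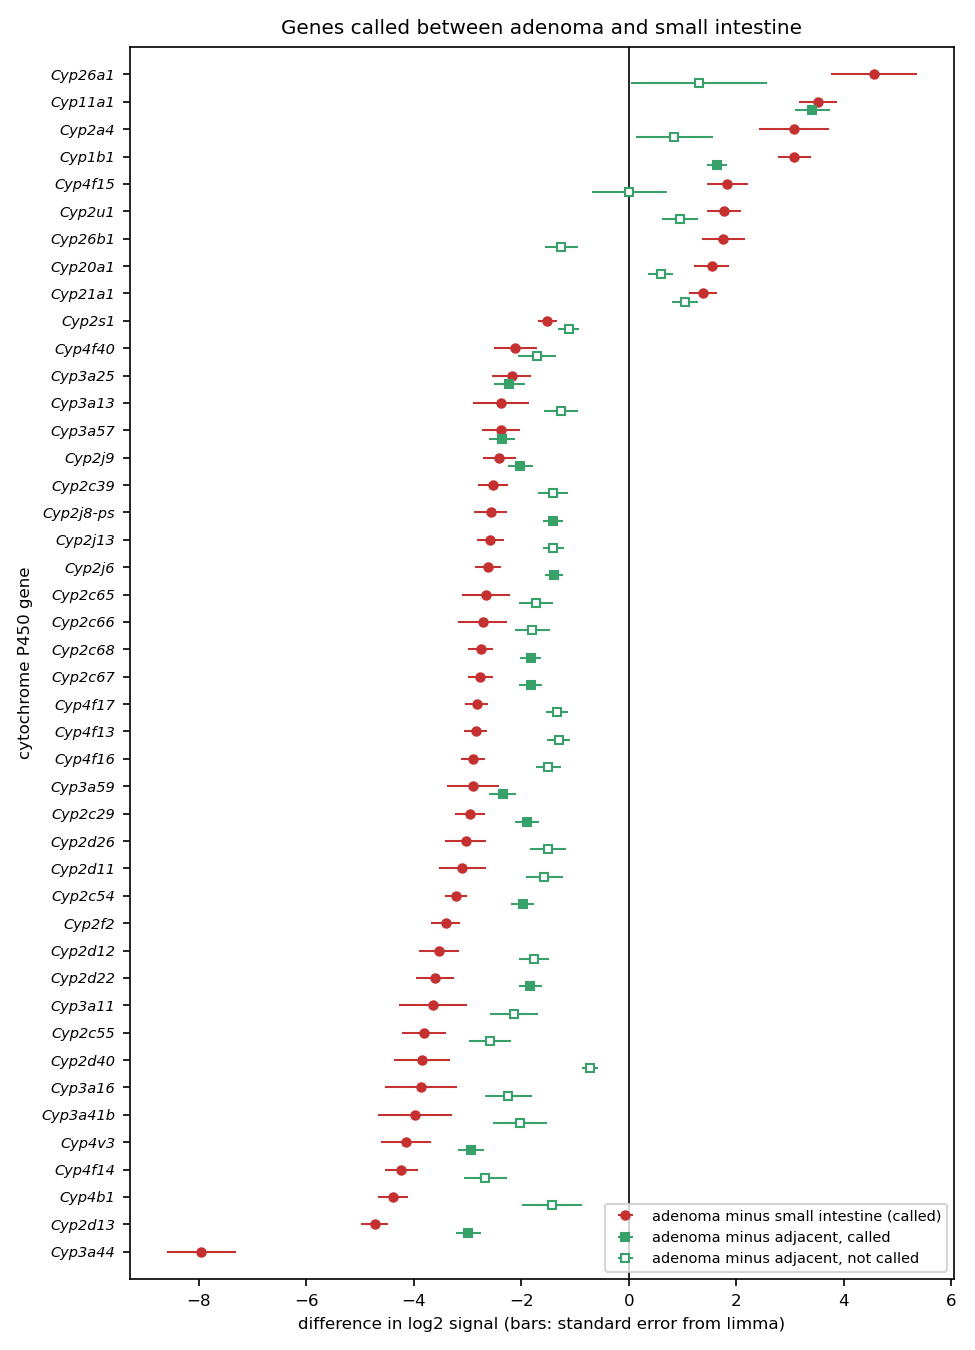
Difference in log2 signal for the 44 genes called between adenoma and small intestine (red circles), with the difference between adenoma and adjacent tissue of the same gene below it (green squares, filled where called), and bars for the limma standard error. *Cyp3a44* and *Cyp2f2* have no green square because they were not tested against adjacent tissue. Of the red circles, 35 lie left of 0, from -1.51 for *Cyp2s1* to -7.95 for *Cyp3a44*, and 9 lie right of 0, up to 4.55 for *Cyp26a1*.

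All 8 genes of the Cyp3a subfamily, the main intestinal drug oxidases, were tested and all fell in adenomas. *Cyp3a11*, the mouse relative of human CYP3A4, had levels of 4.22, 6.08 and 6.90 in small intestine, 3.54 and 4.91 in adjacent tissue, and 2.15, 2.45 and 1.68 in adenomas. Every adenoma lay below every small intestine and adjacent array, and small intestine replicate 1 was the lowest of its group. The log2 difference was -3.64 (standard error 0.64, limma adjusted p = 0.0036), which is 12.5-fold. This call was lost in 5 of 14 alternatives, with adjusted p reaching 0.0537 in a fit of all 5 groups.

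*Cyp3a44* had the largest difference. Its levels were -0.98, 1.19 and 1.66 in small intestine, while it was not well above background on any adjacent or adenoma array, so that it was at least 51.1-fold lower in adenomas (limma adjusted p = 0.00019). The other Cyp3a genes, among them *Cyp3a13* and *Cyp3a25*, fell by 2.17 to 3.97 on the log2 scale. *Cyp3a13* lost its call in 10 of 14 alternatives, and its dimmer probe was not called, while *Cyp3a25* and *Cyp3a59* lost theirs in 5 each. These genes are close copies of each other, and how far their probes share transcripts was not tested.

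Of the Cyp2c subfamily, which makes epoxides and alcohols of arachidonic acid and oxidizes drugs, 12 of 13 genes were tested and 8 fell. *Cyp2c65* had levels of 4.12, 5.23 and 5.78 in small intestine, 3.87 and 4.36 in adjacent tissue and 2.52, 2.77 and 1.86 in adenomas. The groups did not overlap between small intestine and adenomas, with a log2 difference of -2.66 (standard error 0.45, limma adjusted p = 0.0031). *Cyp2c55* gave 3.26, 1.95 and 3.03 in small intestine against -0.87, -0.61 and -1.70 in adenomas, a log2 difference of -3.81 (limma adjusted p = 0.00057). *Cyp2c66*, *Cyp2c67*, *Cyp2c68*, *Cyp2c29*, *Cyp2c39* and *Cyp2c54* fell by 2.53 to 3.21 on the log2 scale. *Cyp2c37*, *Cyp2c38*, *Cyp2c44* and *Cyp2c70* were not called, at -0.86, -1.03, -1.97 and -0.58, although a further probe named *Cyp2c37* was called lower at -3.05.

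Among the 7 tested genes with CAAAGTCCA in the promoter, 6 were called lower in adenomas and *Cyp2c70* was not called. Among the 42 tested genes with a listed promoter that lacks it, 24 were lower, 7 higher and 11 not called. The difference between these shares was not tested, since promoters within a subfamily are copies. *Hnf4a* and *Hnf4g*, the hepatocyte nuclear factors 4, were lower in adenomas, by 1.40 (limma adjusted p = 0.00087) and 2.54 (limma adjusted p = 0.0018) on the log2 scale. Whether this bears on the P450 genes was not tested.

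In the Cyp2d subfamily, 8 of 10 genes were tested and 6 fell. *Cyp2d26* read 7.69, 8.58 and 8.80 in small intestine, 6.83 ± 0.23 (SD, n = 2) in adjacent tissue and 4.92, 5.95 and 5.10 in adenomas. The 3 groups formed separate steps, and adenomas were 8.18-fold below small intestine (limma adjusted p = 0.00093). *Cyp2d13*, read through a noncoding RefSeq transcript, had levels of -2.46, -2.52 and -1.69 in small intestine and was not well above background on any adenoma array, at least 7.11-fold lower (limma adjusted p = 6.9e-05). *Cyp2d11*, *Cyp2d12*, *Cyp2d22* and *Cyp2d40* fell by 3.09 to 3.85 on the log2 scale, while *Cyp2d10* and *Cyp2d34* were at 0.72 and 0.56 and were not called.

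The arachidonic acid epoxygenases of the Cyp2j subfamily were tested for 5 of 7 names, and 4 fell. *Cyp2j6* had nearly the same level in the 3 adenomas, 1.21, 1.22 and 1.24, against 3.32, 4.11 and 4.10 in small intestine and 2.81 and 2.42 in adjacent tissue. The adenoma arrays differed from each other by less than the arrays of the other groups did. The log2 difference was -2.62 (standard error 0.24, limma adjusted p = 0.00031). *Cyp2j8-ps*, *Cyp2j9* and *Cyp2j13* fell by 2.40 to 2.58. *Cyp2s1*, an epithelial form that takes retinoic acid and prostaglandins as substrates, read 5.83, 5.60 and 5.69 in small intestine, 5.47 and 5.16 in adjacent tissue and 4.06, 4.44 and 4.09 in adenomas. This was the smallest log2 difference among the called decreases, at -1.51 (standard error 0.18, limma adjusted p = 0.00072).

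Family 4 oxidizes fatty acids and eicosanoids at their end carbon. Of its 20 genes, 12 were tested, 7 fell and 1 rose. *Cyp4f14*, which inactivates leukotriene B4, had levels of 8.14, 8.25 and 8.60 in small intestine, 7.17 and 6.37 in adjacent tissue and 3.44, 4.37 and 4.49 in adenomas. No groups overlapped, and adenomas were 18.7-fold below small intestine (log2 difference -4.23, standard error 0.31, limma adjusted p = 0.00014). *Cyp4b1*, which acts on medium-chain fatty acids and furans, gave 4.28, 5.10 and 5.34 in small intestine, 2.94 and 0.93 in adjacent tissue and 0.54, 0.45 and 0.56 in adenomas. Its adjacent arrays differed from each other by more than the adenomas did, and adenomas were 21.0-fold below small intestine (limma adjusted p = 0.00011). *Cyp4v3*, a fatty acid hydroxylase of the eye and other tissues, read 5.33, 6.98 and 6.94 in small intestine and 1.90, 2.37 and 2.55 in adenomas, a 17.7-fold difference (limma adjusted p = 0.0006). *Cyp4f13*, *Cyp4f16*, *Cyp4f17* and *Cyp4f40* fell by 2.11 to 2.89. *Cyp4a10* and *Cyp4a31*, targets of Ppara, were at 0.38 and 0.82 and were not called.

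**Figure D3:**
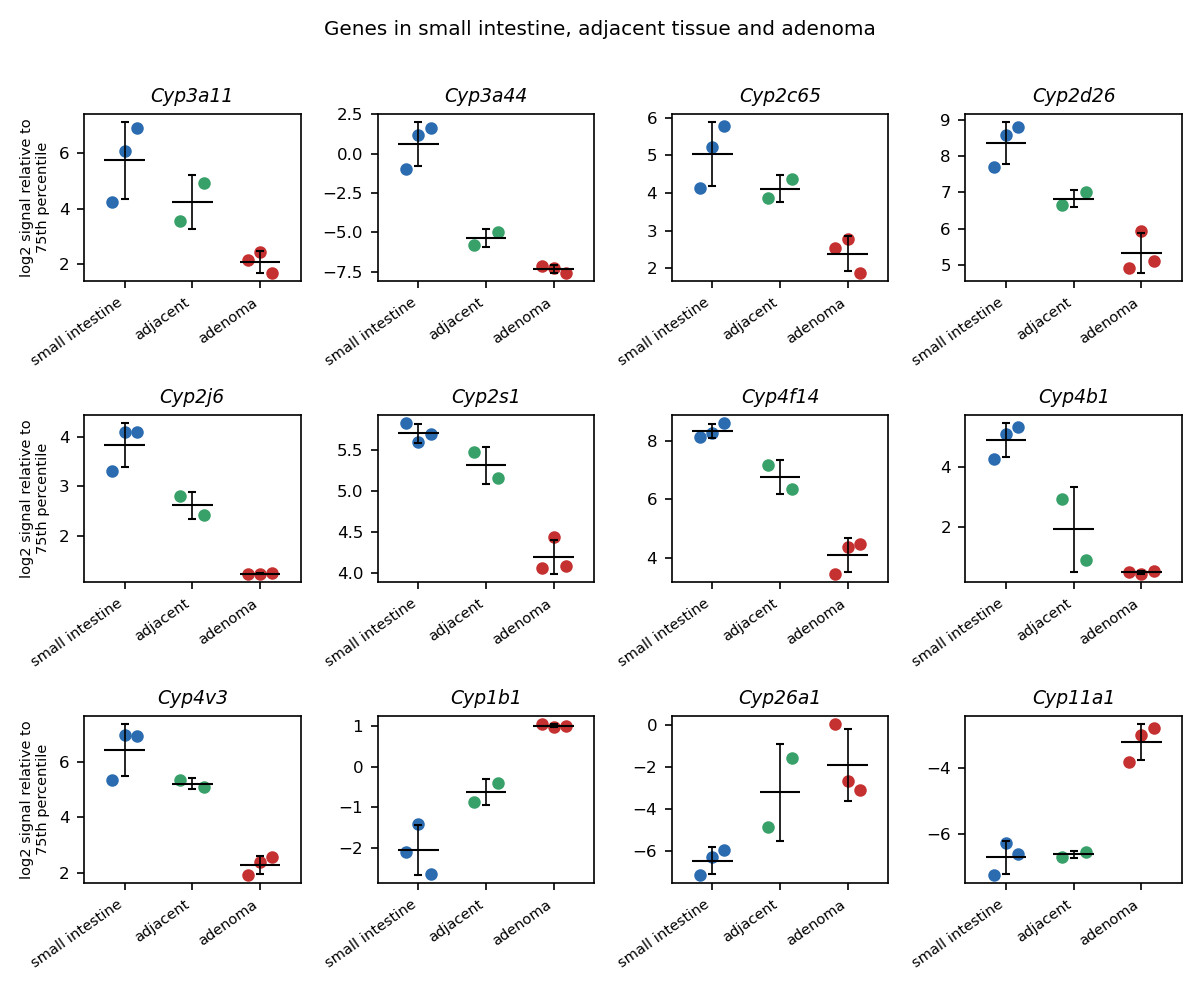
Level of 12 genes on the arrays of small intestine, adjacent tissue and adenoma (points), with the group mean (line) and SD (bars), on the scale of log2 signal relative to the 75th percentile of the array and with a separate axis for each gene. *Cyp3a11* to *Cyp4v3* step down from small intestine to adenoma, with adjacent tissue between. *Cyp3a44* was above background on no adjacent or adenoma array, so no step between these groups was measured for it. *Cyp1b1* and *Cyp26a1* step up and *Cyp11a1* is raised in adenomas alone among these 3 groups.

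The 9 genes called higher in adenomas came from several families. *Cyp1b1*, an Ahr target that oxidizes estrogens and polycyclic hydrocarbons and is known from stromal cells, read -2.11, -1.41 and -2.66 in small intestine, -0.86 and -0.40 in adjacent tissue and 1.06, 0.98 and 1.01 in adenomas. The 3 adenomas were nearly identical and lay above all arrays of the other groups. The log2 difference from small intestine was 3.08 (standard error 0.31, limma adjusted p = 0.00041), or 8.43-fold. It lost its call in 1 of 14 alternatives, the fit of all 5 groups (adjusted p = 0.016). *Cyp1a1*, the best known Ahr target, was not tested, since no group had it above background on every array, and it ranged from -5.10 to 0.01 within the small intestine.

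Retinoic acid is cleared by the Cyp26 enzymes, and 2 of the 3 genes were tested. *Cyp26a1* was not above background on any small intestine array and read -4.83 and -1.56 in adjacent tissue and 0.06, -2.67 and -3.06 in adenomas. All adenomas were above background but spread over several log2 units and overlapped adjacent tissue. Against small intestine the gene was at least 6.27-fold higher (limma adjusted p = 0.0037). Its log2 difference was 4.55, against 1.58 with normexp background correction and 1.78 with the values normalized by the authors, and it was called in neither. *Cyp26b1* read -1.39, -0.41 and -1.91 in small intestine, 1.43 and 2.13 in adjacent tissue and 0.32, 0.30 and 0.95 in adenomas. Adenomas exceeded small intestine by 3.39-fold (limma adjusted p = 0.0096). The gene was highest in adjacent tissue, where the difference from small intestine was not called (limma adjusted p = 0.0505). In the same comparison *Rarb*, a retinoic acid receptor gene that retinoic acid itself induces, was higher by 3.81 (limma adjusted p = 0.00017). Among genes of retinoid uptake and synthesis, *Aldh1a1*, *Bco1*, *Lrat*, *Rdh7* and *Retsat* were lower. *Aldh1a3*, a further retinaldehyde dehydrogenase gene, which was listed with the Ahr pathway, was higher.

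Among steroid genes, *Cyp11a1*, which cuts the side chain of cholesterol as the first step to every steroid hormone, was above background on the adenoma arrays and on no other array. Its levels were -3.81, -3.00 and -2.77 in adenomas, and it was at least 2.54-fold higher than in small intestine (limma adjusted p = 0.00043) and at least 2.44-fold higher than in adjacent tissue (limma adjusted p = 0.0049). With normexp background correction the log2 difference from small intestine was 0.89, and with the values normalized by the authors it was 1.11, both below the fold threshold. *Cyp21a1*, the adrenal steroid 21-hydroxylase, was 2.60-fold higher (limma adjusted p = 0.0047) and *Cyp17a1* was at -0.75 and not called. Of 4 measured markers of steroidogenic cells that are no member, *Hsd3b1* and *Mc2r* were above background on no array of any group, whereas *Star* and *Nr5a1* were above it on every array and were not called, at -0.97 and -0.38. Their part in the result was not tested.

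*Cyp2a4*, a testosterone hydroxylase, was not above background on any small intestine array and was at least 5.86-fold higher in adenomas (limma adjusted p = 0.0077). *Cyp4f15*, seen on 2 of the 3 arrays of small intestine, was 3.57-fold higher in adenomas (limma adjusted p = 0.0072). *Cyp20a1*, which has no established substrate, was 2.92-fold higher (limma adjusted p = 0.0076). *Cyp21a1* and *Cyp26b1* lost their calls in 10 of 14 alternatives each, *Cyp2a4* and *Cyp4f15* in 10 of 13 and *Cyp20a1* in 9 of 14, so these 5 calls depended on the setting.

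*Cyp2u1*, a fatty acid hydroxylase of brain and thymus, had no settled direction because its probes disagreed. The brighter probe, designed on an Ensembl transcript at chromosome 3, 130996343 to 130996402 (NCBI37/mm9), read 5.72, 5.15 and 5.76 in small intestine and 7.94, 6.94 and 7.05 in adenomas, a log2 difference of 1.77 (limma adjusted p = 0.0039). The dimmer probe, designed on the RefSeq transcript at 131000939 to 131000998, read -2.45, -2.89 and -2.54 in small intestine and was above background on no adenoma array, at least 5.38-fold lower (limma adjusted p = 0.00042). *Cyp2u1* is counted as higher above because the brightest probe was taken for every gene.

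**Figure D4:**
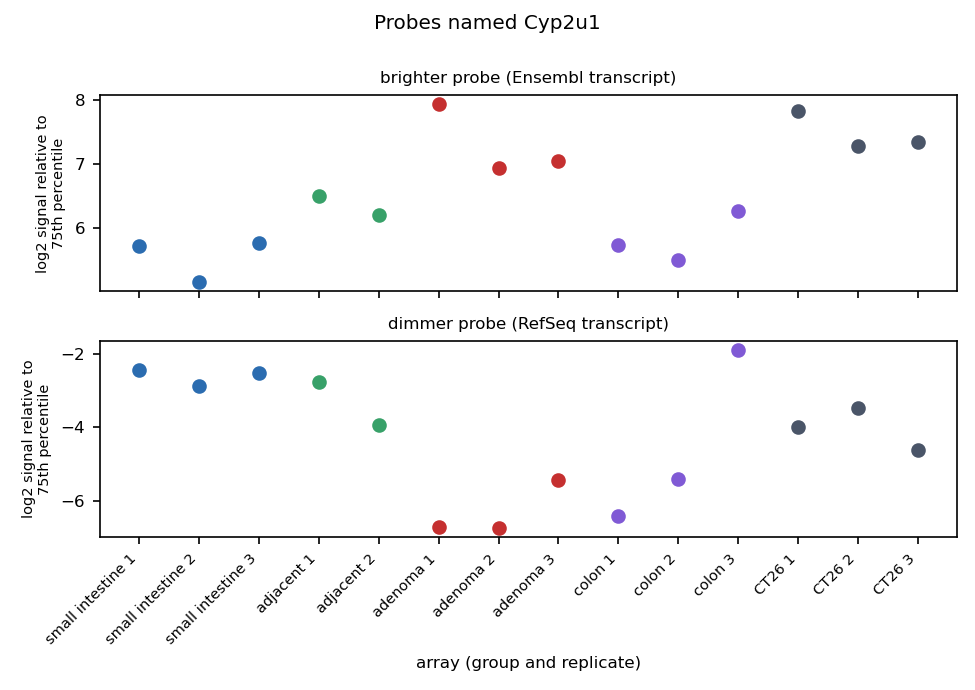
Level of the 2 probes named *Cyp2u1* on each of 14 arrays, as log2 signal relative to the 75th percentile of the array, colored by group and with a separate axis for each probe. The brighter probe is higher and the dimmer probe lower on all 3 adenoma arrays than on all 3 small intestine arrays.

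Several members with known roles in the gut were not called between adenomas and small intestine. *Cyp2b10*, the classic target of Car, read 3.48, 6.37 and 6.74 in small intestine and 1.67, 2.39 and 2.58 in adenomas. The groups did not overlap, but small intestine replicate 1 lay far below the other small intestine arrays, and the log2 difference of -3.31 had a limma adjusted p of 0.014. *Cyp2b9* was similar, at -3.59 (limma adjusted p = 0.015). *Cyp27a1*, which makes bile acids and 27-hydroxycholesterol, was at -1.58 (limma adjusted p = 0.027), *Cyp39a1* at 1.17 (0.035), *Cyp7b1* at 0.72 (0.26) and *Cyp2e1*, the ethanol oxidase, at -1.09 (0.26). *Cyp2r1*, the vitamin D 25-hydroxylase, was at -1.02 (limma adjusted p = 0.064). *Cyp27b1*, which activates vitamin D, and *Cyp2w1*, a tumor-associated form, were above background on every array of neither group and were not tested.

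Adjacent tissue was compared with both. Between adjacent tissue and small intestine 0 of 62 members were called by limma, where 0.00922% of all genes were, although 29 members had an unadjusted p of at most 0.05, a share of 46.8% against 30.6% of all genes. A fit of all 5 groups called 1, where 136 of 21695 genes were called, and the other alternatives at these thresholds called 0. Between adenomas and adjacent tissue 16 of 63 members were called (2 higher and 14 lower), against 4.19% of all genes (2.4% higher and 1.78% lower). The median log2 difference of the tested members was -1.34, against -0.04 over all genes. At an adjusted p of at most 0.05 with no minimum fold, 40 members and 20.2% of all genes passed.

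The 14 that fell between adjacent tissue and adenomas were led by *Cyp2b9* and *Cyp4v3*. *Cyp2b9* read -0.99 and -0.20 in adjacent tissue and -4.69, -4.14 and -3.89 in adenomas, where 2 of 3 arrays were above background, a log2 difference of -3.65 (limma adjusted p = 0.0045). *Cyp4v3* read 5.34 and 5.08 in adjacent tissue and was 7.66-fold lower in adenomas (limma adjusted p = 0.0035). *Cyp3a57*, *Cyp3a59* and *Cyp3a25* were lower by 5.10-fold, 5.08-fold and 4.66-fold, and *Cyp2d13* by at least 2.12-fold. *Cyp2c29*, *Cyp2c54*, *Cyp2c67*, *Cyp2c68*, *Cyp2d22*, *Cyp2j6*, *Cyp2j8-ps* and *Cyp2j9* were lower by 1.39 to 2.02 on the log2 scale. The genes that rose were *Cyp11a1* and *Cyp1b1*, the latter by 1.64 (limma adjusted p = 0.0066). These calls rest on 2 adjacent arrays, and 1 remained with slide as a block and 0 without adenoma replicate 2 or 3. Over all genes, 162, 0 and 22 were called in these settings.

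For 34 of the 35 genes lower in adenomas than in small intestine, the adjacent mean lay between the means of those groups. *Cyp3a25* was the exception, with a mean slightly above that of the small intestine. The adjacent mean stood at a median of 0.422 of the way from small intestine to adenoma (quartiles 0.339 and 0.492). For the 9 genes higher in adenomas the median was 0.617, with 8 between and *Cyp26b1* beyond. The comparisons share their arrays, so these positions are descriptive. They were not computed for the other called genes and are not shown to be particular to P450 genes. *Cyp3a44* and *Cyp2f2* were above background on no adjacent or adenoma array, so their positions are not informative.

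The genes that serve or govern the P450 enzymes were read alongside. Of 8 electron transfer partners, 0 were higher in adenomas than in small intestine and *Cyb5a* and *Pgrmc1* were lower, while *Por*, the reductase that serves all microsomal members, was at 0.14 (limma adjusted p = 0.73). Of 12 genes of heme synthesis and breakdown, *Blvrb* and *Hmox1*, which break heme down, were higher and 0 were lower. Of 8 genes of the Ahr pathway, *Aldh1a3* was higher and *Ahrr* and *Tiparp*, which Ahr induces, were lower, and *Ahr* was at 0.64 (limma adjusted p = 0.027). Of 17 nuclear receptors, 2 were higher (*Rarb* and *Rarg*) and 7 lower, among them *Nr1i2* at -1.98 (limma adjusted p = 0.00058) and the vitamin D receptor *Vdr* at -2.06 (limma adjusted p = 0.00015). *Nr1i3* was at -1.51 and was not called (limma adjusted p = 0.096).

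Marker genes of other cells moved in the same comparison. Of 10 small intestine enterocyte markers, 7 were lower in adenomas and 0 higher, and the median of the list ran from 5.91 to 8.16 in small intestine, from 6.14 to 6.74 in adjacent tissue and from 4.75 to 5.56 in adenomas. All 10 were above background on every adenoma array. Of 7 genes of gastric glands all were higher, with medians from -6.94 to -3.48 in small intestine and from 2.58 to 2.92 in adenomas. Of 10 proliferation genes 8 were higher, and of 8 general epithelial markers 1 was higher and 3 were lower. Of 6 goblet cell markers 4 were lower, of 6 tested Paneth cell markers 3 were lower and 1 higher, and of 10 colonocyte markers 4 were lower and 3 higher. Of 6 tested hepatocyte markers, *Ahsg*, *Alb* and *Ttr* were higher and 1 was lower. Of the remaining lists, 1 of 6 smooth muscle markers was lower, and 1 of 5 tested immune markers was higher and 2 were lower. Of 3 tested genes among 7 of the pancreatic acinar list, 1 was higher, *Cela1*. *Gpx5* was higher and was the only tested gene of the 5 on the epididymis list. The other genes of that list were above background on no array. *Gpx5* was also called higher in adjacent tissue than in small intestine. The part of all these markers in the P450 differences was not tested.

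Colon was compared with small intestine, and with all colon arrays 0 of 59 members were called by limma, where 0.00966% of all genes were (0.00483% higher and 0.00483% lower), although 34 had an unadjusted p of at most 0.05, a share of 57.6% against 23.9% of all genes. The fit of all 5 groups called 21, where 798 of 20694 genes were called. Without colon replicate 3, 19 of 64 members were called (5 higher and 14 lower in colon), against 7.24% of all genes (3.33% higher and 3.91% lower). The called genes then came from families 1 to 4, and those higher in colon all from family 2.

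The 5 genes higher in colon replicates 1 and 2 were *Cyp2d34*, *Cyp2d10*, *Cyp2d9*, *Cyp2d37-ps* and *Cyp2f2*, and they were singled out after their values were seen. All but *Cyp2f2* are of the Cyp2d subfamily. How far the probes of these Cyp2d genes share transcripts was not tested, here or in the comparisons below. *Cyp2d34* read 5.10 and 5.19 in colon replicates 1 and 2, -3.88 in replicate 3 and -4.10, -5.28 and -4.92 in small intestine, where 1 of 3 arrays was above background. The log2 difference without replicate 3 was 9.91 (limma adjusted p = 0.00015). *Cyp2d10* read 4.05, 3.08 and -2.79 in colon against -2.18, -4.05 and -2.90 in small intestine, and *Cyp2f2*, a naphthalene oxidase of airway club cells, 2.64, 1.05 and -5.91 against at most -3.17. Without replicate 3 their log2 differences were 6.61 and 5.49 (limma adjusted p = 0.0018 and 0.002). For each of these 5 genes colon replicate 3 lay far below the other colon arrays. *Cyp2c55* followed the same pattern, at 6.06, 5.13 and -5.73 in colon, and without replicate 3 was 2.85 above small intestine (limma adjusted p = 0.012), which is not a call.

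The 14 genes lower in colon replicates 1 and 2 than in small intestine included *Cyp3a11* and *Cyp2b10*. *Cyp3a11* read -4.69, -7.40 and -0.54 in colon, and *Cyp2b10* -5.41, -7.25 and 1.17. Colon replicate 3 was the highest colon array for both. Against replicates 1 and 2, where neither was above background, small intestine was at least 1596-fold higher for *Cyp3a11* and at least 1480-fold higher for *Cyp2b10* (limma adjusted p = 0.0017 and 0.0018 without replicate 3). *Cyp1b1*, *Cyp2d22*, *Cyp2d26*, *Cyp2j6*, *Cyp2j8-ps*, *Cyp2j13*, *Cyp3a57*, *Cyp4f13*, *Cyp4f14*, *Cyp4f16*, *Cyp4f17* and *Cyp4v3* were lower as well. *Cyp2s1* read 5.82, 5.69 and 5.76 in colon, within 0.05 of the small intestine mean (standard error 0.21, limma adjusted p = 0.9). *Cyp3a11* and *Cyp2b10* were highest in the colon array with the high enterocyte markers given above, and the part of these markers in the result was not tested.

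**Figure D5:**
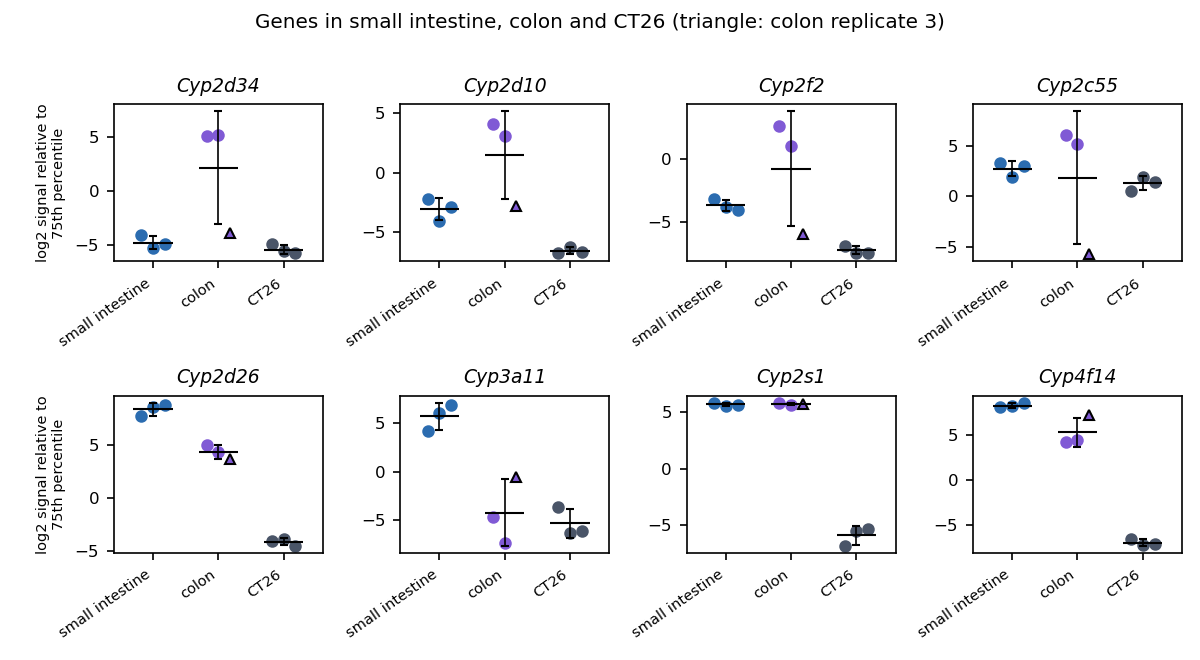
Level of 8 genes on the arrays of small intestine, colon and CT26, as log2 signal relative to the 75th percentile of the array, with group mean (line) and SD (bars), a separate axis for each gene, and colon replicate 3 drawn as a triangle. For *Cyp2d34*, *Cyp2d10*, *Cyp2f2* and *Cyp2c55* the triangle lies far below the other colon arrays, for *Cyp3a11* and *Cyp4f14* it lies above them, and for *Cyp2s1* all colon arrays coincide.

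CT26 was compared with colon to ask which members differ in a malignant colorectal line. Colon is whole tissue and CT26 a cultured line, so malignancy, culture, mixture of cells and any difference in strain cannot be told apart. Of 48 members tested, 27 were called (2 higher and 25 lower in CT26), against 37.2% of all genes (21% higher and 16.2% lower), and the median log2 difference of the tested members was -2.31, against 0.32 over all genes. Only 34 of the 96 members were above background on all CT26 arrays. When both groups had to be above background, 13 of 29 members and 5154 of 16525 genes were called. At an adjusted p of at most 0.05 with no minimum fold, 32 members and 53.1% of all genes passed. Without colon replicate 3, 37 of 56 tested were called (3 higher and 34 lower), against 39.5% of all genes (20.1% higher and 19.4% lower).

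*Cyp4f14* and *Cyp2s1* were among the genes lower in CT26 than in colon. *Cyp4f14* read 4.28, 4.48 and 7.22 in colon and was above background on no CT26 array, at least 1559-fold lower (limma adjusted p = 1.3e-05), or at least 809-fold without colon replicate 3. *Cyp2s1*, level across the colon arrays, was at least 1756-fold lower (limma adjusted p = 1.5e-06). *Cyp2c67*, *Cyp4b1* and *Cyp2d12* were lower by at least 258-fold, 181-fold and 130-fold, which became 557-fold, 181-fold and 250-fold without colon replicate 3. *Cyp27a1* and *Cyp7b1*, which serve bile acid and oxysterol metabolism, were lower by at least 7.52-fold and 7.71-fold. *Cyp2d26* was above background on all CT26 arrays, at -3.99, -3.80 and -4.49, and was still 341-fold below colon (limma adjusted p = 4.2e-06). *Cyp2r1*, *Cyp2j6* and *Cyp3a13* were lower by 3.18-fold, 8.65-fold and 114-fold, with *Cyp3a13* above background on 2 of 3 CT26 arrays. *Cyp2r1* lost its call in 7 of 14 alternatives, among them the omission of colon replicate 3 (limma adjusted p = 0.0109).

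The genes higher in CT26 were *Cyp20a1* and, by its brighter probe, *Cyp2u1*, whose call was lost in 9 of 14 alternatives. Without colon replicate 3, *Cyp2c44* was called higher as well, by 3.69-fold (limma adjusted p = 0.0016). *Cyp20a1* read 1.28, 1.36 and 1.03 in CT26 against -0.60, -0.50 and -1.77 in colon, a 4.53-fold difference (limma adjusted p = 0.0028). CT26 exceeded every tissue array for this gene. *Cyp27b1* was above background on every array of CT26 and of no tissue group, at -0.12, -3.65 and -2.61, and with this spread the log2 difference of 3.25 was not called (limma adjusted p = 0.012). CT26 replicate 1 also read 2.36 for *Cyp4a12b* and -0.10 for *Cyp3a59*, against values at or below -5.62 and -5.86 on the other CT26 arrays, and these single-array values were picked after they were seen. Of 17 nuclear receptors, 11 were lower in CT26 and 1 higher, and *Hnf4a*, *Hnf4g* and *Nr1i2* were above background on no CT26 array. Of the 8 general epithelial markers, 5 were above background on no CT26 array, and the part of this in the P450 differences was not tested.

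Between adenomas and colon, 1 of 62 members was called, against 3.69% of all genes (2.07% higher and 1.62% lower). It was *Cyp2s1*, 2.96-fold lower in adenomas (log2 difference -1.56, standard error 0.19, limma adjusted p = 0.0067). The call was lost in 8 alternatives, among them each omission of an adenoma array. Without colon replicate 3, 16 of 67 members were called (6 higher and 10 lower in adenomas), against 11.7% of all genes (5.02% higher and 6.66% lower). The higher ones were *Cyp11a1*, *Cyp1b1*, *Cyp21a1*, *Cyp2b10*, *Cyp3a11* and *Cyp4f15*, with *Cyp1b1* at least 64.9-fold higher, since it was above background on neither colon array (limma adjusted p = 5.3e-05). Of the 10 that were lower, *Cyp2d34*, *Cyp2d10*, *Cyp2d9*, *Cyp2d37-ps* and *Cyp2f2* were those raised in colon replicates 1 and 2, and the remainder were *Cyp2c54*, *Cyp2c55*, *Cyp2d13*, *Cyp2d40* and *Cyp2s1*.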

How the data were processed

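Total RNA was measured on 14 one-color Agilent arrays of 5 groups. The authors deposited the scanner output, in which the intensity of each spot is already background-subtracted by Agilent Feature Extraction, and a table of normalized log2 values. The deposited table also holds 28 further columns of per-sample values, which were not used, and columns of the authors' own fold changes and p-values, which were not used either. The processed intensity was put on a log2 scale relative to the 75th percentile of its array and averaged over the spots of a probe, leaving out control and outlier spots (103 to 206 on an array). A probe entered a test if all arrays of either compared group had it above background.

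Tests used the moderated linear model of limma 3.58.1 (R 4.3.3) on the arrays of the compared groups, with Benjamini-Hochberg adjustment over all probes tested. A call required a log2 difference of at least 1.2 and an adjusted p of at most 0.01. The procedure was tested on simulated data with the same spread for every probe and no outlying array. The simulation therefore does not cover an array that stands apart from its group. The number of arrays limits the precision. A fold written as "at least" sets the bright group against the lowest signal well above background, because the other group had no array above background. The 2 slides each hold several groups, and scans split the arrays as slides do. The members, the gene lists and the genes named (in each comparison and direction the 5 largest called differences, called genes of the steroid, bile acid and vitamin lists, and a set of genes of known role) were chosen with earlier results of these data known. Genes outside this rule were named after their values were seen. Probe names were matched to RefSeq by accession, and probe positions are in NCBI37/mm9 while promoter positions are in GRCm38.p6. Alternatives were normexp background correction, quantile normalization, the authors' table, other filters, a fit of all groups, slide or replicate number as a block, and each array left out. The result of 1 gene of the retinoid list is not reported here.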

Additional observations from a re-analysis of the deposited data

How the results depend on the processing

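The numbers of P450 genes called between adenomas and small intestine (44 in the main setting) and between CT26 and colon (27) stayed within 1.5 times under most settings, whereas the comparisons with adjacent tissue and colon did not. Between adenomas and adjacent tissue, 16 became 25 with normexp background correction, 0 without a filter on dim probes, 2 in a fit of all 5 groups, 1 with slide as a block and 40 at an adjusted p of at most 0.05 with no minimum fold. Between adjacent tissue and small intestine, 0 became 1 in the fit of all 5 groups and 1 at the relaxed threshold. Between colon and small intestine, 0 became 21 and 1 in the same settings. Between CT26 and colon, 27 became 13 when both groups had to be above background, where 5154 of 16525 genes were called. Between adenomas and colon, 1 became 3 with quantile normalization, 2 with the authors' table, 0 without a filter, 10 in the fit of all 5 groups, 0 with slide as a block and 13 at the relaxed threshold.

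Leaving out 1 array at a time gave 28 to 46 calls between adenomas and small intestine, 0 to 12 between adenomas and adjacent tissue, 0 to 0 between adjacent tissue and small intestine, 0 to 19 between colon and small intestine, 20 to 37 between CT26 and colon and 0 to 16 between adenomas and colon. The highest values of the last 3 were those without colon replicate 3. The cause of these changes was not tested.

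With the replicate number as a block, 40, 1, 0, 0, 26 and 0 genes were called in the order adenoma and small intestine, adenoma and adjacent, adjacent and small intestine, colon and small intestine, CT26 and colon, adenoma and colon. Deviations of same-numbered arrays correlated between -0.27 and 0.32, so the numbers were not taken to pair the samples. The titles number the adjacent arrays 2 and 3 where the source names give 1 and 2. With the numbers of the titles, a pairing added after seeing the data, the correlations ran from -0.11 to 0.27, and the block left 0 calls between adenomas and adjacent tissue and 0 between adjacent tissue and small intestine.

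Over 55 results on named genes and 742 values under alternatives, 513 kept the call, 229 lost it and 0 turned direction. Between adenomas and small intestine, 9 of 28 named genes kept the call throughout (*Cyp2d12*, *Cyp2d13*, *Cyp2d26*, *Cyp2j6*, *Cyp3a44*, *Cyp4b1*, *Cyp4f14*, *Cyp4f16* and *Cyp4v3*), as did 9 of 16 between CT26 and colon.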
